A study of Mus musculus with 6 samples.

Results

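The genes described here encode the cardiac natriuretic peptides (Nppa and Nppb), the protease that matures the first of them (Corin) and the 3 natriuretic peptide receptors (Npr1, Npr2 and Npr3). Members were taken by gene symbol from an annotation of the mouse build GRCm38, and all 6 were found among 52550 gene rows. Messenger RNA was counted in cardiomyocytes from hearts of 1-day-old mice, in 3 GR-cKO libraries and 3 control libraries (called ctrl in the labels). In GR-cKO cells Nr3c1, which encodes the glucocorticoid receptor, a hormone-activated transcription factor, was deleted in cardiomyocytes. The labels give no Cre driver, no deleted exon and no alleles for the controls, and do not say how many hearts made up a library. Both groups were grown the same way, with magnetic enrichment for cardiomyocytes, 48 hours with 5% horse serum and 10% fetal bovine serum, and then 24 hours without serum. All 6 libraries carry the treatment label ctrl, so no hormone or drug separated the groups. The labels call the libraries biological replicates without naming separate animals or cultures. The p-values therefore set each difference only against the spread of these libraries, and part of that spread may be technical.

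Natriuretic peptides are hormones of the heart that lower blood volume and pressure. Nppa encodes the precursor of atrial natriuretic peptide and Nppb that of brain natriuretic peptide. Both genes are active in atria and ventricles before birth, Nppa becomes largely restricted to the atria afterwards, and both return in ventricles under load. Corin, a protease anchored in the cardiomyocyte membrane, cuts the atrial precursor into active hormone, while furin is known to cut the brain peptide precursor. Npr1 encodes the guanylyl cyclase receptor for both cardiac peptides, Npr2 the one for C-type natriuretic peptide, and Npr3 a clearance receptor that takes up the peptides and has no cyclase domain. Npr3 is also a known marker of the endocardium, the inner lining of the heart.

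The 4 promoters below belong to the members whose values carry most of the comparison, the 3 genes that differed between genotypes and Nppb, the neighbour of Nppa. Each window runs from 250 bases before to 50 bases after the start of the gene in RefSeq (GRCm38.p6), written 5′ to 3′ on the gene's strand. Capitals mark matches, on either strand, to 7 short words, AGAACA alone or followed after any 3 bases by TGTTCT (a single and a paired copy of the glucocorticoid receptor sequence), GATAA (GATA factors), AAGTG (NK2-type homeobox factors), ACGTG (hypoxia-inducible factors), CATTCC (TEAD factors) and TATAAA (the TATA box).
Nppa, chr4:148000472-148000771, plus strand: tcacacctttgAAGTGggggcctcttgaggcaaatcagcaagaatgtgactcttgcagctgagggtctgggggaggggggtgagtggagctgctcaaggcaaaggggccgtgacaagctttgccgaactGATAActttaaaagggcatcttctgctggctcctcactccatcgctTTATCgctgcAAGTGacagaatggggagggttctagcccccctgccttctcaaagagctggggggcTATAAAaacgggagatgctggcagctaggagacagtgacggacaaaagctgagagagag
Nppb, chr4:147985650-147985949, plus strand: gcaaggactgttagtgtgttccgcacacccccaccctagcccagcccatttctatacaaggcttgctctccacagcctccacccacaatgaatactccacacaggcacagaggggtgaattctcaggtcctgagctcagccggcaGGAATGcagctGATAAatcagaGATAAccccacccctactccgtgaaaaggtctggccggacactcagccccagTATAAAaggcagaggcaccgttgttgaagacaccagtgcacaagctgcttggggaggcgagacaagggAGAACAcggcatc
Npr3, chr15:11907322-11907621, minus strand: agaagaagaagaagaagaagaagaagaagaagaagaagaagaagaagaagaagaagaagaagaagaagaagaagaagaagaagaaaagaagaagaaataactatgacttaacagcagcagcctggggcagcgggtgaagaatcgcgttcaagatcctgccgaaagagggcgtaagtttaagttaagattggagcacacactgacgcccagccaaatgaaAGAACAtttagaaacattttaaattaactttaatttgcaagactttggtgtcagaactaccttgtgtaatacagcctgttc
Corin, chr5:72504491-72504790, minus strand: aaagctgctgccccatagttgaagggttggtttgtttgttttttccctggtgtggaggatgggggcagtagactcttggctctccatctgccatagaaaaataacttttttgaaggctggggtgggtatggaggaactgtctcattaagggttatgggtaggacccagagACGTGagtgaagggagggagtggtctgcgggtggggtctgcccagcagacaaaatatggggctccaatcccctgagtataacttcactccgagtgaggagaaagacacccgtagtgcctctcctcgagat
Counted from the RefSeq start as 1, the Nppa window held GATAA at -121 to -117 and, on the opposite strand, at -75 to -71. It held AAGTG at -239 to -235 and at -65 to -61, and TATAAA at -9 to -4. The Nppb window held GATAA at -94 to -90 and at -83 to -79, and the TEAD word on the opposite strand at -105 to -100. It also held TATAAA at -31 to -26 and AGAACA at 38 to 43, after the RefSeq start. AGAACA was also found in the Npr3 window, at -31 to -26, and ACGTG in the Corin window, at -80 to -76. The gene spans given below come from another annotation. There Nppb starts at 147985788, before all the words of its window, and the Npr3 and Corin windows lie wholly outside those genes' spans. The words are short and common. Of 32851 windows of this length in the table, 25.4% held GATAA, 46.4% AAGTG, 19.0% AGAACA, 19.6% ACGTG, 14.7% the TEAD word and 13.6% TATAAA. The paired glucocorticoid receptor sequence was found in 3 windows, none of them of a member. The Npr1 and Npr2 windows, with a GC content of 69.7% and 64.0%, held none of the 7 words. A match describes letters only and is no evidence of binding.

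The libraries held 19371508 to 22583596 gene counts in GR-cKO and 19798297 to 21051064 in control. Levels are given as CPM (tag counts relative to the scaled total of the library), with tags read near the polyadenylated end of each transcript, so a level does not grow with transcript length, although tag yield can still differ between genes. Of 14386 genes tested, 15.0% differed between genotypes at an adjusted p below 0.05 (edgeR quasi-likelihood test), 7.74% higher and 7.28% lower in GR-cKO, and the groups did not overlap in 29.9%. Nr3c1 was at 46.2, 42.8 and 44.1 CPM in GR-cKO libraries and at 68.2, 73.9 and 72.4 CPM in control libraries (log2 fold change -0.69 ± 0.09 SE, adjusted p = 1.07e-06, edgeR). Tags read outside any deleted exons can persist, which was not tested, so this is no measure of the receptor left. Xist, transcribed from the inactive X chromosome of females, had 0, 2 and 0 counts in GR-cKO and 6103, 5794 and 5507 counts in control, so sex and genotype cannot be told apart here. Control replicate 3 stood apart from the other libraries on the second principal component, which held 17.3% of the variance. Cardiomyocyte markers were abundant in all libraries, with 10 of 10 tested and sums of 44403 to 47751 CPM in GR-cKO and 34346 to 36011 CPM in control.

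Nppa was higher in GR-cKO and was among the most abundant transcripts of these cells. It stood at 17702, 18397 and 18587 CPM in the GR-cKO libraries, against 13460, 13696 and 13707 CPM in the control libraries. Every GR-cKO library lay above every control library, and the gap between the groups was wider than the range within either. The means were 18229 ± 466 CPM in GR-cKO and 13621 ± 140 CPM in control (SD, n = 3 each), a 1.34-fold difference (log2 fold change 0.42 ± 0.05 SE, 95% interval 0.31 to 0.53, adjusted p = 1.17e-06, edgeR). By mean level Nppa ranked 2 among all genes in GR-cKO and 3 in control. Without control replicate 3 its log2 fold change was also 0.42 (adjusted p = 7.62e-05, edgeR).

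Nppa (ENSMUSG00000041616) spans 148000722 to 148002079 on the plus strand of chromosome 4. An antisense transcript, Gm13054, overlaps it on the other strand and had 3, 2 and 7 counts in GR-cKO and 1, 3 and 23 counts in control, against 277544 to 391820 counts for Nppa. Whether the authors' counting used strand is not given in the sources used here. Nppa and Nppb together took 1.75%, 1.81% and 1.89% of all gene counts in GR-cKO libraries and 1.35%, 1.40% and 1.41% in control libraries. The widest 95% Wilson interval of these shares ran from 1.88% to 1.89%, and it covers counting error only. The mean share was 0.43 percentage points higher in GR-cKO, with no overlap (two-sided exact permutation p = 0.1, and 3 libraries against 3 can give no lower value; 0.16 adjusted over 8 such within-library comparisons).

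Nppb did not pass the test, and its libraries overlapped. It was at 161, 124 and 244 CPM in GR-cKO libraries and at 106, 143 and 127 CPM in control libraries. The highest value was in GR-cKO replicate 3, while GR-cKO replicate 2 lay below 2 of the 3 controls. The means were 176 ± 61.8 CPM in GR-cKO and 126 ± 18.9 CPM in control (SD, n = 3 each), with a log2 fold change of 0.49 ± 0.30 (SE), a 95% interval from -0.33 to 1.31 and an adjusted p of 0.423 (edgeR). The point estimate is close to that of Nppa, but the interval runs from a fall to a rise of more than 2-fold. Single libraries decide the value. Without GR-cKO replicate 2 the log2 fold change was 0.69 and passed (adjusted p = 0.0221), and without GR-cKO replicate 3 it was 0.19 (adjusted p = 0.383, edgeR).

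Nppb (ENSMUSG00000029019) spans 147985788 to 147987205 on the plus strand of chromosome 4, upstream of Nppa in the same orientation, with starts 14.9 kb apart. The log2 ratio of Nppb to Nppa counts was -6.78, -7.22 and -6.25 in GR-cKO libraries and -6.99, -6.58 and -6.75 in control libraries. The difference of the means was 0.02 with overlapping groups (exact permutation test, two-sided, p = 1; 1 adjusted over the 8 comparisons). Nppa thus exceeded Nppb in every library by a wide margin, and the ratio did not separate the genotypes.

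**Figure D1:**
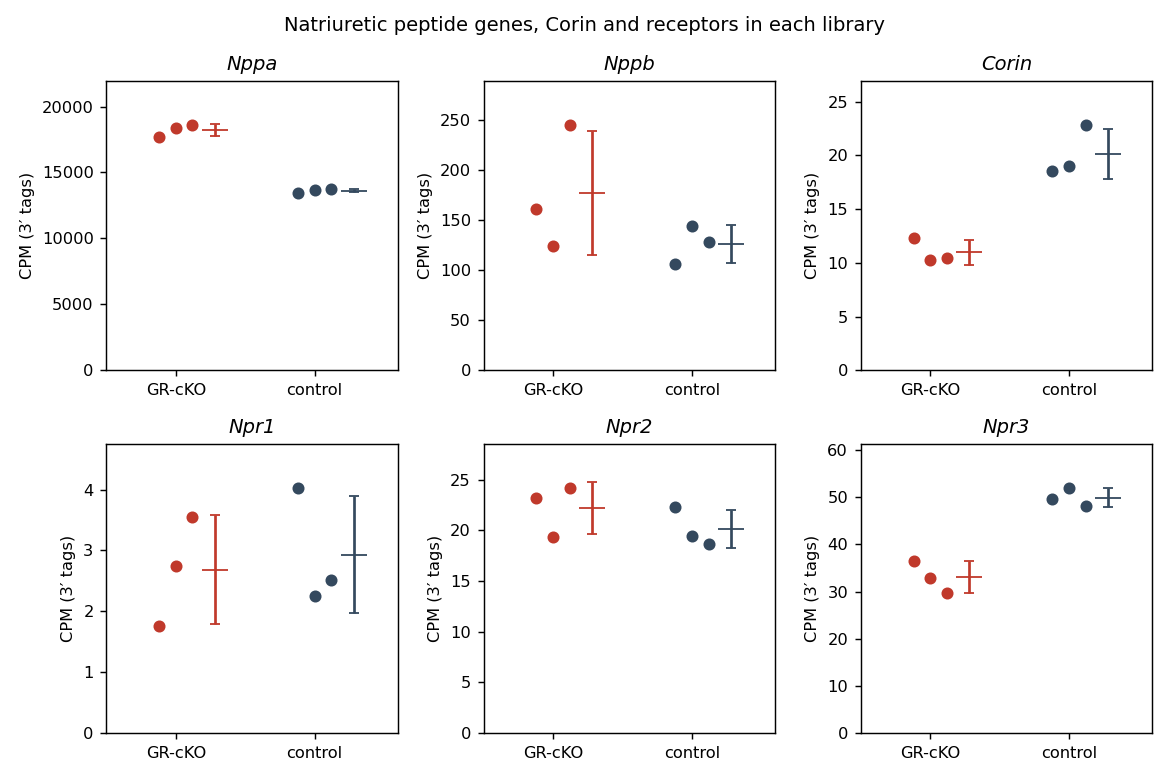
CPM of each member in each library (points), with the group mean and SD beside them; GR-cKO is on the left and control on the right of each panel, and every axis starts at 0. Nppa is higher and Corin and Npr3 are lower in every GR-cKO library than in any control library, while the groups overlap for Nppb, Npr1 and Npr2.

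Corin fell, in the opposite direction to the peptide gene whose product it cuts. It stood at 12.3, 10.3 and 10.4 CPM in GR-cKO libraries, against 18.6, 19.0 and 22.8 CPM in control libraries. The groups did not overlap. The means were 11.0 ± 1.16 CPM in GR-cKO and 20.1 ± 2.34 CPM in control (SD, n = 3 each), which is 1.83-fold lower in GR-cKO (log2 fold change -0.87 ± 0.15 SE, 95% interval -1.18 to -0.56, adjusted p = 0.000103, edgeR). These levels rest on 202 to 273 counts per GR-cKO library and 387 to 462 per control library. Of the 14386 tested genes 91.6% had a smaller absolute log2 fold change. Without control replicate 3, the highest of the controls, the log2 fold change was -0.77 (adjusted p = 0.00205, edgeR). The gene (ENSMUSG00000005220) spans 72300025 to 72504473 on the minus strand of chromosome 5. The 5 annotated genes that overlap it had at most 1 count in a library.

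Among the receptors, Npr3 fell and the cyclase receptors Npr1 and Npr2 did not pass. Npr3 was at 36.5, 32.8 and 29.7 CPM in GR-cKO libraries and at 49.6, 52.0 and 48.1 CPM in control libraries. All GR-cKO values lay below all control values. The means were 33.0 ± 3.40 CPM in GR-cKO and 49.9 ± 1.97 CPM in control (SD, n = 3 each), or 1.51-fold lower in GR-cKO (log2 fold change -0.60 ± 0.10 SE, 95% interval -0.81 to -0.39, adjusted p = 8.05e-05, edgeR). Without control replicate 3 the value was -0.62 (adjusted p = 0.000375, edgeR). The gene (ENSMUSG00000022206) spans 11839896 to 11907287 on the minus strand of chromosome 15, and no other annotated gene overlaps it.

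Npr2 was at 23.2, 19.3 and 24.2 CPM in GR-cKO libraries and at 22.3, 19.5 and 18.7 CPM in control libraries, with overlapping groups. Its log2 fold change was 0.14 ± 0.13 (SE; 95% interval -0.13 to 0.42, adjusted p = 0.564, edgeR). Npr1 was scarce, at 1.76, 2.74 and 3.55 CPM in GR-cKO libraries and 4.03, 2.25 and 2.52 CPM in control libraries. That is 39 to 69 counts per GR-cKO library and 48 to 84 per control library. The Npr1 groups overlapped, and its log2 fold change of -0.13 ± 0.36 (SE) had a 95% interval from -0.86 to 0.60 (adjusted p = 0.874, edgeR). A change of Npr1 by 1.5-fold in either direction lies inside the interval. Its sign was positive without GR-cKO replicate 1 (0.10) or control replicate 1 (0.17). Npr1 (ENSMUSG00000027931) lies on the minus strand of chromosome 3, from 90450591 to 90465866, and Npr2 (ENSMUSG00000028469) on the plus strand of chromosome 4, from 43631935 to 43651244.

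Npr3 was the most abundant receptor in each library, and its share of the counts of the 3 receptors was smaller in GR-cKO. The share was 59.4% (95% Wilson interval 56.7% to 61.9%), 59.8% (56.8% to 62.6%) and 51.7% (48.8% to 54.6%) in GR-cKO libraries. In control libraries it was 65.3% (63.0% to 67.6%), 70.5% (68.2% to 72.7%) and 69.4% (67.0% to 71.8%). All 3 GR-cKO libraries lay below all controls, with means of 56.9% ± 4.54 in GR-cKO and 68.4% ± 2.73 in control (SD, n = 3 each; two-sided exact permutation p = 0.1, the lowest possible; 0.16 adjusted). Npr2 held 37.8%, 35.2% and 42.1% of receptor counts in GR-cKO and 29.4%, 26.4% and 26.9% in control, and Npr1 held at most 6.18% in any library.

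The order of mean levels was Nppa, Nppb, Npr3, Npr2, Corin, Npr1 in both groups. In control the neighbours Npr2, at 20.2 ± 1.90 CPM, and Corin, at 20.1 ± 2.34 CPM, did not differ beyond their spread. In GR-cKO they were apart, with Npr2 at 22.3 ± 2.58 CPM and Corin at 11.0 ± 1.16 CPM (SD, n = 3). Every other pair of neighbours was separated in every library of its group. Thus 1 of the 6 members was higher, 2 were lower and 3 did not pass, beside the 7.74% and 7.28% of all tested genes named above.

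**Figure D2:**
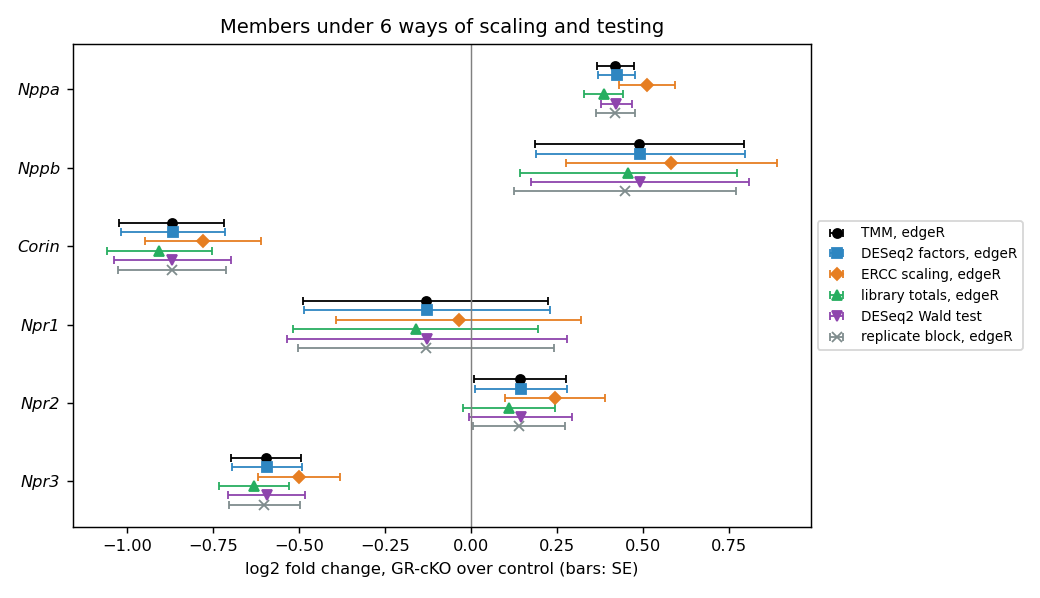
Log2 fold change of each member (GR-cKO over control, bars are SE) under 6 ways of scaling or testing the same 6 libraries. Scaling to the ERCC spike-ins moves all 6 members upwards together, and Nppa stays above 0 and Corin and Npr3 stay below 0 in each.

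Library scaling shifts all members alike, so the members were also set against markers of the cells that make them, within each library. These 5 ratios were chosen after seeing the data. In bulk samples fewer cells of a type and less RNA per cell cannot be told apart. Most cardiomyocyte markers moved with Nppa. Of 10, 8 rose and none fell (median log2 fold change 0.35, against -0.01 over all tested genes). Beside this count and those of the lists below stand 7.74% of all tested genes that were higher and 7.28% that were lower. Tnnt2 (log2 fold change 0.15) and Tnni3 (-0.003) did not pass, and Actc1 rose most (0.63). Actc1, cardiac actin, was at 9800 ± 207 CPM in GR-cKO and 6343 ± 98.3 CPM in control (SD, n = 3 each; adjusted p = 1.03e-09, edgeR). The log2 ratio of Nppa to the sum of the 10 markers was -1.43, -1.32 and -1.26 in GR-cKO libraries and -1.42, -1.33 and -1.37 in control libraries. The groups overlapped and their means differed by 0.04 (exact permutation test, two-sided, p = 0.6; 0.686 adjusted). Relative to the sum of these markers the difference of Nppa was therefore within the spread between libraries. That sum follows its most abundant members, Myl3, Actc1 and Tnnt2 (11402, 9800 and 9164 CPM in GR-cKO), more than the others.

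Corin stood further apart on this scale. Its log2 ratio to the same marker sum was -11.92, -12.13 and -12.06 in GR-cKO and -10.92, -10.82 and -10.60 in control, a difference of -1.25 with no overlap (two-sided exact permutation p = 0.1, the lowest possible; 0.16 adjusted). Atrial cardiomyocytes are known to hold much Corin, and some of their markers were lower. Of 14 tested 5 fell, none rose and 9 did not pass (median -0.16). Kcnj3, a potassium channel subunit, fell most (log2 fold change -1.70). Next were Sln, a regulator of the calcium pump (-0.86), and Myl7, an atrial myosin light chain (-0.71). The 9 that did not pass lay between -0.43 (Nr2f1) and 0.19 (Kcna5). The summed level of the 14 was 3045 to 3343 CPM in GR-cKO and 4545 to 4667 CPM in control. Most of it was Myl7 (1575 CPM in GR-cKO, 2585 CPM in control) and Myl4 (1087 and 1220 CPM). The sum therefore says little of the other markers. The log2 ratio of Corin to that sum was -7.95, -8.35 and -8.32 in GR-cKO and -7.97, -7.91 and -7.64 in control, and here the groups overlapped (difference -0.36; exact permutation test, two-sided, p = 0.2; 0.267 adjusted). Nppa, itself an atrial marker in the postnatal heart, went the other way from this list. The part of atrial cells in the fall of Corin was not tested.

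Npr3 fell, while several endothelial markers rose. Of 13 tested 8 rose and 1 fell (median 0.40; 5 rose and 1 fell when scaled by library totals alone), with summed levels of 1612 to 1796 CPM in GR-cKO and 1456 to 1554 CPM in control. Kdr, the main VEGF receptor of endothelium, was 2.69-fold higher, while Emcn, a sialomucin of veins and endocardium, was 1.56-fold lower. The log2 ratio of Npr3 to the endothelial sum was -5.62, -5.75 and -5.76 in GR-cKO and -4.97, -4.81 and -4.93 in control, a difference of -0.81 with no overlap (two-sided exact permutation p = 0.1, the lowest possible; 0.16 adjusted). Of the other endocardial markers 6 could be tested, of which 1 fell and none rose (median -0.36). The one that fell was Cgnl1, a junction protein, at 98.5 ± 4.17 CPM in GR-cKO and 129 ± 6.94 CPM in control (SD, n = 3 each). The sum of the 7 other endocardial markers was mostly Plvap and Cgnl1, so it says little of the rest. Plvap did not pass (103 ± 7.91 CPM in GR-cKO, 98.7 ± 13.2 CPM in control, SD, n = 3 each). Against that sum the log2 ratio of Npr3 was -2.88, -3.05 and -3.17 in GR-cKO and -2.65, -2.58 and -2.65 in control. The difference of -0.40 was again without overlap (exact permutation test, two-sided, p = 0.1; 0.16 adjusted).

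**Figure D3:**
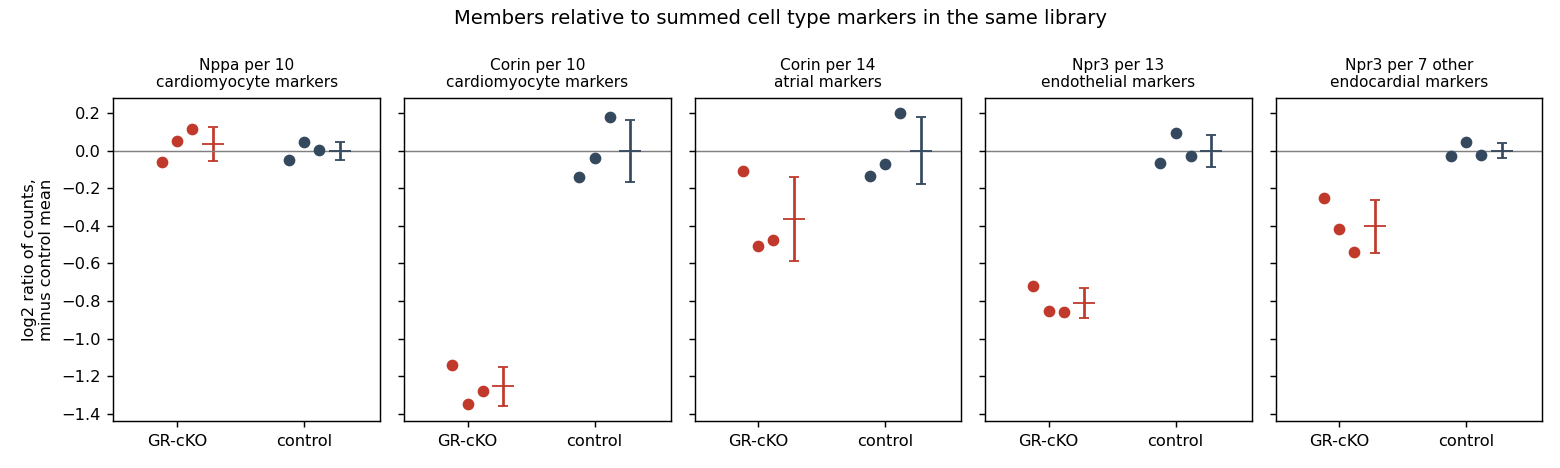
Log2 ratio of Nppa, Corin or Npr3 counts to the summed counts of a marker list in the same library, shown minus the control mean; points are libraries, and the bars beside them are mean and SD. Nppa overlaps between groups, Corin is lower relative to cardiomyocyte markers but overlaps relative to atrial markers, and Npr3 is lower relative to both endothelial and endocardial markers.

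Other cell type lists held calls as well, beside 7.74% of all tested genes that were higher and 7.28% that were lower. Of fibroblast markers 6 of 12 rose and 1 fell, with sums of 5102 to 5270 CPM in GR-cKO and 3934 to 4192 CPM in control. Of smooth muscle and pericyte markers 5 of 10 rose and 1 fell (4504 to 4732 CPM in GR-cKO, 3823 to 3934 CPM in control). Of 9 epicardial markers 2 rose and 4 fell (133 to 144 CPM in GR-cKO, 174 to 186 CPM in control). Of 9 ventricular markers 2 rose and 3 fell (16657 to 18664 CPM in GR-cKO, 13199 to 14509 CPM in control). Leukocyte markers were scarce, at 36.9 to 60.3 CPM in GR-cKO and 15.0 to 19.0 CPM in control, and 4 of the 8 tested rose. With scaling to the ERCC spike-ins 3 ventricular markers rose and 1 fell. No marker in any of these lists was at 0 in all libraries. The part of these cells in the values of the members was not tested.

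Genes around Nppa and Nppb did not move as a block. Of the 8 genes tested within 100 kb, Plod1, a lysyl hydroxylase of collagen, rose most, to 213 ± 11.6 CPM in GR-cKO, against 120 ± 5.81 CPM in control (SD, n = 3 each; log2 fold change 0.83 ± 0.07 SE, adjusted p = 5.43e-10, edgeR). It lies upstream of Nppb, with 2510039O18Rik between them, and that gene did not pass, at 120 ± 15.1 CPM in GR-cKO and 113 ± 2.20 CPM in control. Mfn2, a mitochondrial fusion protein further upstream, rose by 0.22 ± 0.06 (SE, adjusted p = 0.0184, edgeR), a call lost with library totals only (0.0608), without GR-cKO replicate 2 (0.103) and without control replicate 2 (0.100). Downstream of Nppa, the chloride-proton exchanger gene Clcn6, at a log2 fold change of -0.20 ± 0.16 (SE), did not pass. Agtrap, which encodes a protein that binds the angiotensin receptor, was at 32.8 ± 1.13 CPM in GR-cKO and 31.0 ± 2.80 CPM in control.

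**Figure D4:**
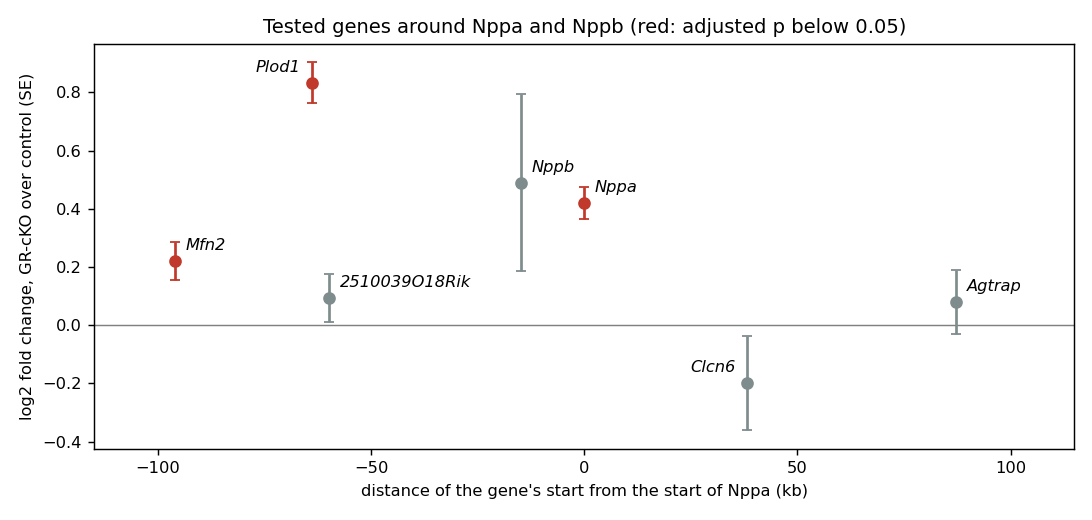
Log2 fold change (GR-cKO over control, bars are SE) of Nppa, Nppb and the neighbouring genes named in the text, by the distance of each gene's start from the start of Nppa in kb. Plod1, Nppa and Mfn2 (red) passed at an adjusted p below 0.05, and Nppb, 2510039O18Rik, Clcn6 and Agtrap (grey) did not.

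Genes that mature or degrade the peptides changed in both directions. Of 12 tested 3 rose and 3 fell (median 0.15), beside 7.74% of all tested genes that were higher and 7.28% that were lower. Furin, the convertase of the brain peptide precursor, was at 233 ± 19.6 CPM in GR-cKO and 193 ± 5.87 CPM in control (SD, n = 3 each; log2 fold change 0.27 ± 0.07 SE, adjusted p = 0.00687, edgeR); it was singled out after its values were seen. Ide, the insulin-degrading enzyme, which also cleaves atrial natriuretic peptide, rose to 70.8 ± 6.12 CPM in GR-cKO, against 48.1 ± 3.69 CPM in control (adjusted p = 5.52e-05, edgeR). Prcp, a carboxypeptidase, had a log2 fold change of 0.43 ± 0.14 (SE, adjusted p = 0.0342, edgeR) and kept its call in 7 of 13 alternatives. The call was lost with library totals only (0.0612), among other settings. It was also lost without GR-cKO replicate 1 (0.0724), GR-cKO replicate 3 (0.244), control replicate 1 (0.174) and control replicate 3 (0.0708). Neprilysin (Mme) was scarce and did not pass, at 2.05 ± 0.62 CPM in GR-cKO and 1.76 ± 0.30 CPM in control.

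The convertase gene Pcsk5 had the largest change of this list, at 14.8 ± 1.63 CPM in GR-cKO and 44.5 ± 5.19 CPM in control (SD, n = 3 each), 3.00-fold lower in GR-cKO (adjusted p = 1.06e-10, edgeR). Pcsk6, known to activate corin, was at 8.34 ± 1.48 CPM in GR-cKO and 6.50 ± 1.32 CPM in control (adjusted p = 0.319, edgeR). Pam, a peptide-amidating enzyme that is a major membrane protein of atrial secretory granules, was at 1158 ± 55.2 CPM in GR-cKO and 1475 ± 46.1 CPM in control (adjusted p = 8.24e-05, edgeR). Ece1, which makes endothelin, was at 460 ± 7.58 CPM in GR-cKO and 566 ± 29.9 CPM in control (adjusted p = 0.000869, edgeR). With ERCC scaling neither Pam (adjusted p = 0.0536) nor Ece1 (0.152) passed, which leaves 3 higher and 1 lower. The ligand genes Nppc (C-type peptide) and Ostn (osteocrin, a ligand of the clearance receptor) had no count in any library, which allows at most 0.133 to 0.155 CPM.

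Downstream of the receptors the second messenger is cyclic GMP. Beside 7.74% of all tested genes that were higher and 7.28% that were lower, 2 of 9 phosphodiesterase genes rose and none fell (median 0.25). The 2 that rose were Pde1b, at a log2 fold change of 1.06 ± 0.35 (SE, adjusted p = 0.0402, edgeR), and Pde1a, at 0.34 ± 0.12 (adjusted p = 0.0473, edgeR). Both calls were close to the threshold, and Pde10a (1.06 ± 0.53) and Pde3b (-0.35 ± 0.18) did not pass. Pde1b kept its call in 8 of 13 alternatives and Pde1a in 5 of 13, and leaving out single libraries gave adjusted p-values of up to 0.183 (Pde1b, without GR-cKO replicate 1) and 0.158 (Pde1a, without control replicate 2). Pde1b was also lost without GR-cKO replicate 3 or control replicate 1 or 2, and Pde1a without any one library other than control replicate 1. With library totals only Pde1a was lost as well (0.079). Of 3 genes that make cyclic GMP by way of nitric oxide, Nos3, the endothelial synthase, rose to 18.6 ± 2.69 CPM in GR-cKO, against 11.9 ± 2.12 CPM in control (adjusted p = 0.00585, edgeR; 0.0517 without control replicate 1). The cyclase subunits Gucy1a1 (log2 fold change -0.28 ± 0.12) and Gucy1b1 (0.08 ± 0.13) did not pass.

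Of 12 genes for cyclic GMP-dependent kinases and their substrates 2 rose and 1 fell (median 0.04). Over all tested genes 7.74% were higher and 7.28% lower. The kinase gene Prkg1 was low, at 2.71 ± 0.56 CPM in GR-cKO and 3.43 ± 1.17 CPM in control, and did not pass. Csrp1, a LIM protein, and Hspb6, a small heat shock protein, had log2 fold changes of 0.33 ± 0.06 and 0.35 ± 0.07 (SE; adjusted p = 0.000171 and 0.00087, edgeR). Pln, phospholamban, was at 924 ± 37.5 CPM in GR-cKO and 1158 ± 29.2 CPM in control (adjusted p = 0.00018, edgeR). With ERCC scaling Pln did not pass (adjusted p = 0.0753) while Ppp1r12a did (0.0354), giving 3 higher and none lower.

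Among 27 transcription factors known to act on Nppa or Nppb 3 rose and 5 fell (median -0.12), and with ERCC scaling 4 rose and 3 fell. The shares over all tested genes in the main test were 7.74% higher and 7.28% lower. Tbx5, an activator of Nppa, was at 58.5 ± 4.13 CPM in GR-cKO and 88.2 ± 2.93 CPM in control (SD, n = 3 each; adjusted p = 4.83e-06, edgeR). Gata6 was at 86.9 ± 2.03 CPM in GR-cKO and 122 ± 2.32 CPM in control (adjusted p = 1.29e-05, edgeR). Tead1 had a log2 fold change of -0.30 ± 0.07 (SE, adjusted p = 0.00291, edgeR; 0.195 with ERCC scaling), and Mef2d one of 0.31 ± 0.07 (adjusted p = 0.00304, edgeR). Gata4 and Nkx2-5, the best-known activators of Nppa and named after their values were seen, did not pass, at 51.4 ± 6.85 and 55.9 ± 2.42 CPM in GR-cKO, against 44.8 ± 5.84 and 52.6 ± 3.30 CPM in control.

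A list of load, hypertrophy and sarcomere genes, in which Nppa and Nppb also stand, held more calls. Like the other lists, it was chosen with earlier results of these data known, so its count of calls is no test. It shares Myh6 and Actn2 with the cardiomyocyte markers. Of the 17 tested besides the peptides 13 rose and none fell (median 0.60), beside 7.74% of all tested genes that were higher. Not all of these are known to rise under load. The 13 include Myh6, the adult cardiac myosin heavy chain, which is known to fall under load and was at 5686 ± 96.8 CPM in GR-cKO and 4364 ± 169 CPM in control (SD, n = 3 each; adjusted p = 9.7e-06, edgeR). Myh7, the fetal form known to rise under load, did not pass, at 493 ± 11.4 CPM in GR-cKO and 551 ± 96.7 CPM in control (adjusted p = 0.289, edgeR), although it passed as lower without control replicate 2 (log2 fold change -0.28, adjusted p = 0.0173). Xirp2, an actin-binding protein of the intercalated disc, and skeletal actin Acta1 rose 4.99-fold and 4.09-fold, Rcan1, an inhibitor of calcineurin, 2.63-fold and the muscle LIM protein gene Csrp3 2.07-fold (adjusted p at most 1.28e-12, edgeR). The difference in Nppa, 1.34-fold, was smaller than each of these 4, and that of Nppb was not resolved. Scaled by library totals alone, 14 of all 19 tested genes of the list rose and 1 fell.

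**Figure D5:**
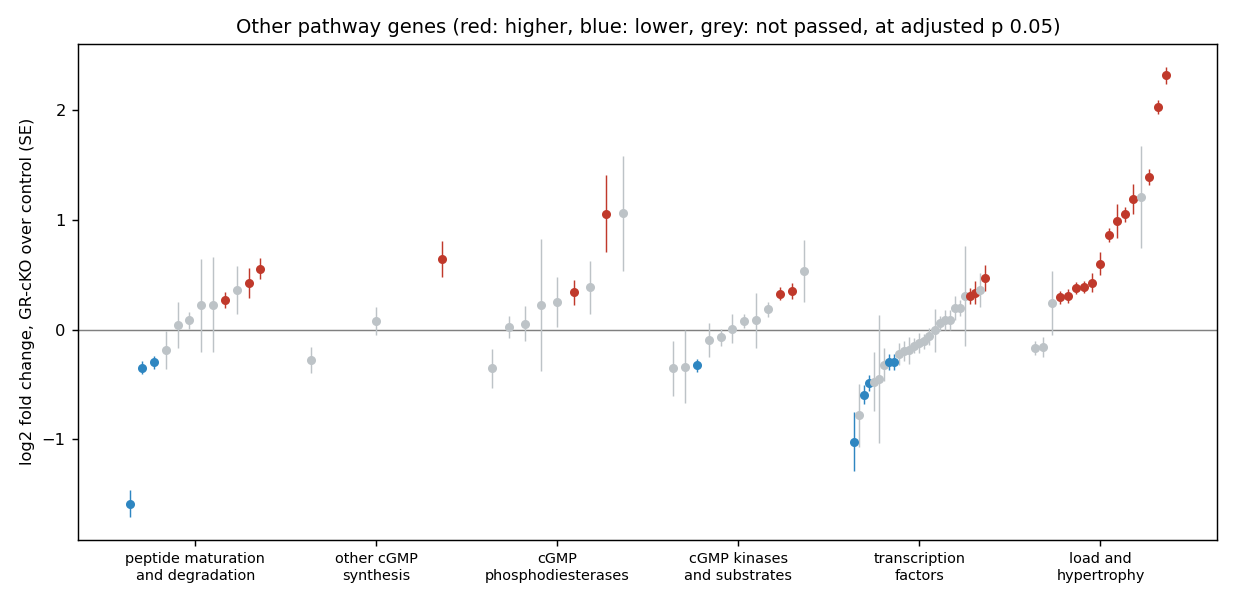
Log2 fold change (GR-cKO over control, bars are SE) of the tested genes in 6 lists around the natriuretic peptides, the members themselves left out; red passed as higher, blue as lower and grey did not pass at an adjusted p of 0.05. Most genes of the load and hypertrophy list lie above 0, while the other lists hold changes in both directions or few changes.

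For each member the 3 genes with the most similar profile over the 6 libraries were found among 9871 genes with a mean of at least 5 CPM, by the root mean square difference of mean-centred log2 CPM. The closest to Nppa were Tspo, Gja1 and Col1a2, with differences of 0.012, 0.015 and 0.016, small beside the SD of 0.23 of the profile of Nppa. The closest to Npr3 were Lsm3, Lmnb1 and Tbx18, at 0.038 to 0.042, and to Corin the genes Kif15, Ska1 and Oip5, at 0.046 to 0.076. Npr2 was closest to Smim13, Fsd2 and Tyw5, at 0.039 to 0.049. Nppb and Npr1 had no gene as near. The closest to Nppb were Prcp, Bloc1s3 and Dnaja3, at 0.125 to 0.139, and to Npr1 the genes Mettl3, St7l and D1Ertd622e, at 0.149 to 0.175. With 6 libraries in 2 groups, a profile that differs between genotypes is matched mostly by other genes with a difference of the same size.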

How the data were processed

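RNA was prepared as 3′ tag libraries (QuantSeq, forward orientation) from 100 ng of total RNA, per the labels' protocols. The authors deposited raw counts per Ensembl gene, 1 table per library. The submitters' processing notes name the aligner STAR 2.5.4a, the counter featureCounts 1.6.2, the trimmer cutadapt, bcl2fastq, FastQC, MultiQC, DESeq2 1.18.1 and the build GRCm38. The sources used here do not give the strand setting or the treatment of multi-mapping reads. The 92 ERCC and 7 SIRV spike-in rows, 1.98% to 2.36% of counts, stayed out of library sizes and tests. Identifiers were matched to GENCODE M21 (52403 of 52550).

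The main test was edgeR 4.0.16 (R 4.3.3; TMM factors, default low-count filter, robust quasi-likelihood fit, Benjamini-Hochberg adjustment over all 14386 tested genes, threshold 0.05), checked on simulated counts. Of genes changed 1.25-fold, 1.5-fold, 2-fold and 3-fold in that simulation, 22%, 50%, 66% and 80% were called, and 0.0359% of unchanged genes. A gene that did not pass may therefore still differ. The fit estimates the spread of a gene partly from other genes (total degrees of freedom 27.35 for Nppa, Corin and Npr3, 4.346 for Nppb). SE is the log2 fold change over the root of F. CPM uses TMM-scaled library sizes; log2 CPM for profiles and principal components used a prior count of 2. Within-library shares and ratios used exact permutation tests (scipy 1.17.1) over the 6 libraries, 3 fixed and 5 added. Counts of libraries within a group differed beyond sampling noise (median chi-square per gene 2.49 to 3.71), so none looks like a repeat read of another. Each was treated as 1 sample, which does not show that they came from separate animals or cultures. A count of 0 allows 0.133 to 0.155 CPM, taken as 3 counts.

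Members and gene lists were chosen with earlier results of these data known. Besides all members, named genes were up to 4 per pathway list with the smallest p, tested neighbours within 100 kb (1 is not reported here) and the 3 most similar profiles; Furin, Mme, Pcsk6, Prkg1, Gata4, Nkx2-5, Myh6 and Myh7 were added after their values were seen, and marker genes are examples. Alternatives were other scalings (DESeq2 1.42.0 size factors, ERCC, library totals), DESeq2's Wald test, no filter, a replicate block, no X or Y genes, and each library left out. Promoter sequences are RefSeq's, matched by symbol for 6 of 6 members.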

Additional observations from a re-analysis of the deposited data

How the results depend on the processing

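Nppa (log2 fold change 0.39 to 0.51), Npr3 (-0.67 to -0.50) and Corin (-0.96 to -0.77) kept their direction and passed in all 13 alternatives run. None of these alternatives can separate sex from genotype. Nppb did not pass in 12 of 13 and passed without GR-cKO replicate 2 (0.69, adjusted p = 0.0221), with values between 0.19 and 0.69 when single libraries were left out. Npr2 (0.09 to 0.24) passed in none. Npr1 (-0.38 to 0.17) passed in none either, and its sign turned without GR-cKO replicate 1 (0.10) and without control replicate 1 (0.17). The log2 ratio of Nppb to Nppa turned without GR-cKO replicate 3 (-0.23) and without control replicate 1 (-0.08; range -0.23 to 0.26). The ratio of Nppa to cardiomyocyte markers turned without GR-cKO replicate 3 (-0.0031; range -0.0031 to 0.085), and 2510039O18Rik without GR-cKO replicate 1 (-0.013; range -0.013 to 0.16). The cause was not tested. The difference in the Npr3 share of receptor counts stayed between -13.0 and -8.86 percentage points, and that of the peptide share between 0.39 and 0.46, with any one library left out.

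The number of genes passing was 2161 (1113 higher, 1048 lower), and 1620 to 1943 with a library left out (1893 without control replicate 3). ERCC scaling gave 1398 higher and 532 lower, so 72.4% of calls were higher, against 51.5%; library totals gave 43.4%. The median of all tested genes was 0.09 with ERCC scaling and -0.01 with TMM. Npr1 rests on 39 to 84 counts per library, and Npr1 and Nppb had the largest SD relative to the mean of the 6 members in both groups. With the replicate number as a block 2452 genes passed and no member's call changed (Nppa 0.42, Nppb 0.45). The numbers do not show pairing, since same-numbered libraries' deviations from their group means correlated at -0.000102, 0.0366 and 0.0195 over genes, and not every library correlated best with its own number.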
